A study of Homo sapiens with 4 samples.

Results

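The signal recognition particle (SRP) and its receptor were followed in SK-N-BE(2) neuroblastoma cells through 8 protein-coding genes: SRP9, SRP14, SRP19, SRP54, SRP68 and SRP72 of the particle, and SRPRA and SRPRB of the receptor. The genes were matched by their GENCODE symbols to the Ensembl identifiers of the count table, and all 8 were present among its 64252 genes. They were selected on fold changes between the groups already known from these libraries, SRP9's among them. Their differences between the groups are therefore given below as a description. Where the fit over all genes placed a member past a threshold, this is stated for completeness and is no test of it.

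SK-N-BE(2) is an established MYCN-amplified human neuroblastoma line. The control cells carried a scramble shRNA (sh-Scb) and the knockdown cells an shRNA against SAPCD2 (sh-SAPCD2), both delivered by lentivirus into cells then selected with puromycin. How many separate selections stand behind a group is not given in the sources used here. RNA-seq of total RNA gave 2 libraries per group. The labels do not say that the libraries of a group came from separate cultures, and p-values therefore measure only the spread between these libraries, which may be technical.

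The SRP binds the signal peptide of a secretory or membrane protein as it emerges from the ribosome, slows translation and brings the ribosome to the endoplasmic reticulum (ER). There its receptor hands the chain to the SEC61 channel. SRP54 is the GTPase that holds the signal peptide. SRP19 helps SRP54 onto the 7SL RNA scaffold, SRP68 and SRP72 form a heterodimer on it, and SRP9 and SRP14 form the heterodimer at the Alu end of the RNA that slows elongation. SRPRA is the GTPase subunit of the receptor that docks with SRP54, and SRPRB is the membrane-anchored GTPase that holds SRPRA at the ER.

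The libraries held 25347900 to 31850997 counts. Log2 CPM correlated at 0.986 between the sh-Scb libraries, at 0.98 between the sh-SAPCD2 libraries and at 0.954 to 0.961 between the groups. SAPCD2 itself was measured at 83.6 and 82.2 CPM (counts relative to the library total, scaled by the TMM method) in the sh-Scb libraries and at 35.4 and 52.5 CPM in the sh-SAPCD2 libraries, a log2 fold change of −0.91 ± 0.193 (SE, adjusted p = 0.0206, edgeR quasi-likelihood test with Benjamini-Hochberg adjustment). The knockdown was thus shallower in sh-SAPCD2 library 2. In that library 7.28% of counts were mitochondrial, against 9.07 to 10.1% in the others. The neuroblastoma markers MYCN, ISL1 and DBH, named after their values were seen, were expressed in all libraries, MYCN being called higher and ISL1 and DBH lower after knockdown. All 11 proliferation markers examined were called lower, their summed level being 3853 and 3901 CPM in the sh-Scb libraries and 1922 and 1774 CPM in the sh-SAPCD2 libraries. Markers of epithelium, blood and glia summed to between 2.76 and 14.1 CPM per library, and SOX10, CD3E, HBB, KRT5 and CDH1 had no count. Of the mesenchymal markers, LUM, PDGFRB, DCN, COL3A1 and COL1A1 had counts in all libraries, and COL1A2 only in sh-Scb library 2. PDGFRB stood at 174 to 232 CPM, LUM at 134 to 185 CPM, DCN at 21.8 to 30.9 CPM and COL1A1 at 2.13 to 4.27 CPM. The list summed to 354 to 432 CPM, most of it from PDGFRB and LUM. The part of these markers in the values of the SRP genes was not tested, and in bulk RNA fewer cells of a type and less RNA per cell cannot be told apart.

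The sequences of the hairpins are shown because 3 of the 8 genes carry a 7-base match to one of them in the 3′ UTR. The 7-base sites searched each stood in 8.77% to 20.7% of 13508 tested genes with an annotated 3′ UTR. Nothing is therefore read from the count of members with a match. The labels do not say which hairpin the sequenced cells carried, and the study's display of these libraries names the first. Both target the coding sequence of SAPCD2 on the minus strand of hg38. Hairpin 1 targets exon 6 (chr9:137064663-137064683) and hairpin 2 exon 3 (chr9:137065607-137065627). The guide arms are given with bases 2 to 8, the usual seed, in capitals.
Hairpin 1, guide arm: aTGAAGGTggaatccagaggt
Hairpin 2, guide arm: aTCATCTCcaaaccctgcagc
No SRP or receptor gene had the match of either guide seed in the 3′ UTR of its canonical transcript. The match of the hairpin 1 guide seed, ACCTTCA, stood in 12.4% of 13508 tested genes with an annotated 3′ UTR, and that of the hairpin 2 guide seed, GAGATGA, in 14.8%. The match of bases 2 to 8 of the hairpin 1 passenger arm, CCAGAGG, stood in 17.5% of these genes and in no member.

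The matches that were found pair with other stretches, given in capitals below. The first is the hairpin 1 passenger arm with the base that precedes it in the ordered oligonucleotide, the second bases 5 to 11 of the hairpin 1 guide arm, and the third bases 2 to 8 of the hairpin 2 passenger arm.
Hairpin 1, passenger arm with the base before it: GACCTCTggattccaccttcat
Hairpin 1, guide arm, shifted: atgaAGGTGGAatccagaggt
Hairpin 2, passenger arm: gCTGCAGGgtttggagatgat
The windows of the 3′ UTRs around the matches follow, on the strand of the gene in hg38, with the 7 matching bases in capitals.
SRP9, chr1:225789462-225789491, plus strand: ttcagaagcttAGAGGTCattttttgtaat
SRP19, chr5:112867859-112867888, plus strand: taaacattttgTCCACCTtttaagttaatg
SRPRA, chr11:126263455-126263484, minus strand: aggatacacagCCTGCAGgtccccaggacc
The SRP9 match began 114 bases after the stop codon in a 3′ UTR of 1105 bases, the SRP19 match at base 333 of 2251 and the SRPRA match at base 443 of 978. The 2 shifted sites of hairpin 1 had been singled out in earlier work on these same libraries, so that their presence here is a description.

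**Figure D1:**
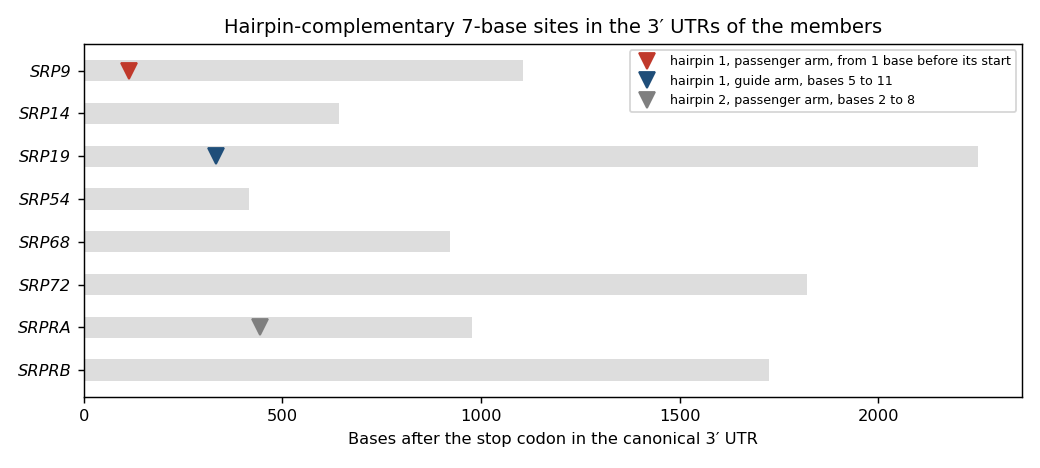
Position of 7-base matches to the hairpins in the canonical 3′ UTR of each gene, in bases after the stop codon. Grey bars give the length of the 3′ UTR and triangles the start of a match. SRP9, SRP19 and SRPRA each carried 1 match, to 3 different stretches of the hairpins, and the other 5 genes carried none.

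In the fit over all genes SRP9 and SRP19 stood among those called lower and SRP54 and SRPRA among those called higher at an adjusted p under 0.05, and SRP14, SRP68, SRP72 and SRPRB did not. Over all 18779 tested genes 12.5% were called lower and 12.4% higher. With the study's additional requirement of an absolute log2 fold change over 1, only SRP9 was lower and only SRPRA higher among the 8, against 5.15% of all tested genes lower and 4.69% higher. Because the genes were selected on this contrast, these counts restate the selection and nothing is read from them. The median log2 fold change was −0.04 over the 8 genes and 0.02 over all tested genes.

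The transcripts of the Alu-end heterodimer differed from each other. All levels here are of RNA, and protein was not measured. SRP9 (chr1:225777813-225790468, plus strand, 3 exons) was measured at 298 and 283 CPM in the sh-Scb libraries and at 45.0 and 40.7 CPM in the sh-SAPCD2 libraries. The groups were far apart, with deposited counts of 8241 and 7800 against 1139 and 1278. The mean was 291 ± 10.5 CPM (SD, n = 2) in control and 42.8 ± 3.04 CPM (SD, n = 2) in knockdown cells, which is 14.7% of control or 6.79-fold lower. Its log2 fold change of −2.76 ± 0.111 (SE) was the 62nd lowest of the 18779 tested genes. Of the sh-SAPCD2 libraries, library 2 had the lower SRP9 level, 40.7 CPM, and the higher SAPCD2 level, 52.5 CPM.

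SRP14 (chr15:40035690-40039181, minus strand), the partner of SRP9, was measured at 184 and 181 CPM in control and at 183 and 178 CPM in knockdown cells. The groups overlapped, and the log2 fold change was −0.02 ± 0.0935 (SE). The level per kilobase of canonical transcript, the scale on which genes can be compared with each other, put SRP9 above SRP14 in both sh-Scb libraries, at ratios of 1.23 and 1.18. In the sh-SAPCD2 libraries the ratio was 0.185 and 0.173. The ratio was thus 6.72-fold lower after knockdown, and SRP14 exceeded SRP9. The control ratio depends on the length taken for each gene and was 1.47 over merged exons, where the knockdown ratio was 0.219.

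The transcripts of the signal-peptide GTPase and its assembly factor differed from control in opposite directions. SRP54 (chr14:34981957-35029686, plus strand) was measured at 75.5 and 79.2 CPM in control and at 131 and 116 CPM in knockdown cells, 1.6-fold higher, with a log2 fold change of 0.68 ± 0.113 (SE). SRP19 (chr5:112861188-112898371, plus strand), the least abundant of the 8, was measured at 28.3 and 29.5 CPM in control and at 19.2 and 20.3 CPM in knockdown cells. This was 68.4% of control, with a log2 fold change of −0.55 ± 0.13 (SE). Neither pair of groups overlapped. The ratio of SRP54 to SRP19 per length was 3.38 and 3.4 in the sh-Scb libraries and 8.67 and 7.22 in the sh-SAPCD2 libraries, 2.34-fold higher. Without either sh-Scb library neither gene passed the threshold, nor did SRP19 without a filter on low counts. Over the alternatives the fold changes lay between 0.58 and 0.77 for SRP54 and between −0.59 and −0.50 for SRP19.

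The transcripts of the central heterodimer were close to control. SRP68 (chr17:76038775-76072517, minus strand) was measured at 105 and 101 CPM in control and at 102 and 108 CPM in knockdown cells, and the groups overlapped. SRP72 (chr4:56467617-56503681, plus strand) was measured at 226 and 218 CPM in control and at 216 and 194 CPM in knockdown cells, which did not overlap by a narrow margin. Their log2 fold changes were 0.03 ± 0.1 (SE) and −0.11 ± 0.103 (SE). SRP72 was called lower under 1 of 12 alternatives, without sh-SAPCD2 library 1.

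The transcripts of the receptor subunits also differed from each other. SRPRA (chr11:126262938-126269144, minus strand) was measured at 143 and 142 CPM in control and at 338 and 339 CPM in knockdown cells. The libraries of each group lay almost on top of each other, and the groups were 2.37-fold apart, with a log2 fold change of 1.24 ± 0.0927 (SE). SRPRB (chr3:133784023-133825772, plus strand) was measured at 67.4 and 66.5 CPM in control and at 61.7 and 66.8 CPM in knockdown cells. These groups overlapped, and the log2 fold change was −0.06 ± 0.109 (SE). The ratio of SRPRA to SRPRB per length was 1.84 and 1.85 in the sh-Scb libraries and 4.73 and 4.38 in the sh-SAPCD2 libraries.

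**Figure D2:**
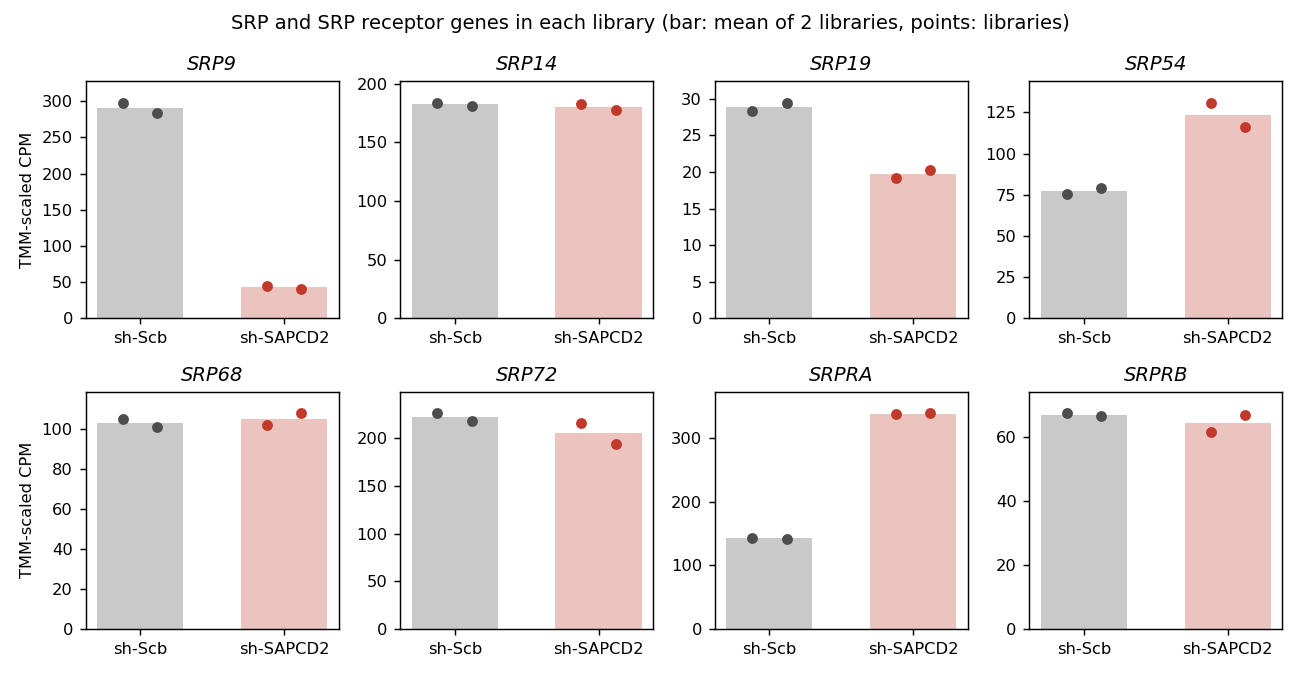
Level of each SRP and SRP receptor gene, in TMM-scaled CPM on axes that start at 0 and differ between panels. Points are libraries and bars the mean of 2 libraries, grey for sh-Scb and red for sh-SAPCD2. SRP9 stood at 298 and 283 CPM in control and at 45.0 and 40.7 CPM in knockdown cells, SRPRA at 143 and 142 against 338 and 339 CPM, while the points of SRP14, SRP68 and SRPRB overlapped between the groups.

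Per length of the canonical transcript, the order of the genes changed with the knockdown. In sh-Scb cells SRP9 came first at 196 ± 7.09 CPM per kilobase (SD, n = 2), followed by SRP14 at 163, SRP72 at 57.5, SRPRA at 47.8, SRP68 at 36.5, SRP54 at 35.4, SRPRB at 26.0 and SRP19 at 10.4. The libraries of SRP68 and SRP54 overlapped, so that these neighbours were not separated by their spread, whereas all other neighbours were. In sh-SAPCD2 cells the order was SRP14 at 161, SRPRA at 113, SRP54 at 56.5, SRP72 at 53.2, SRP68 at 37.2, SRP9 at 28.9 ± 2.05 (SD, n = 2), SRPRB at 24.9 and SRP19 at 7.13. Here SRP54 and SRP72 overlapped. SRP9 thus passed from rank 1 to rank 6 of 8, or to rank 4 when merged exon lengths were used, since the lengths of the genes differ between these definitions. With merged exon lengths SRP54 passed only from rank 7 to rank 6, and SRPRB stood at rank 5 in both groups. Summed over the 8 genes, the level was 1128 and 1101 CPM in control and 1098 and 1062 CPM in knockdown cells.

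**Figure D3:**
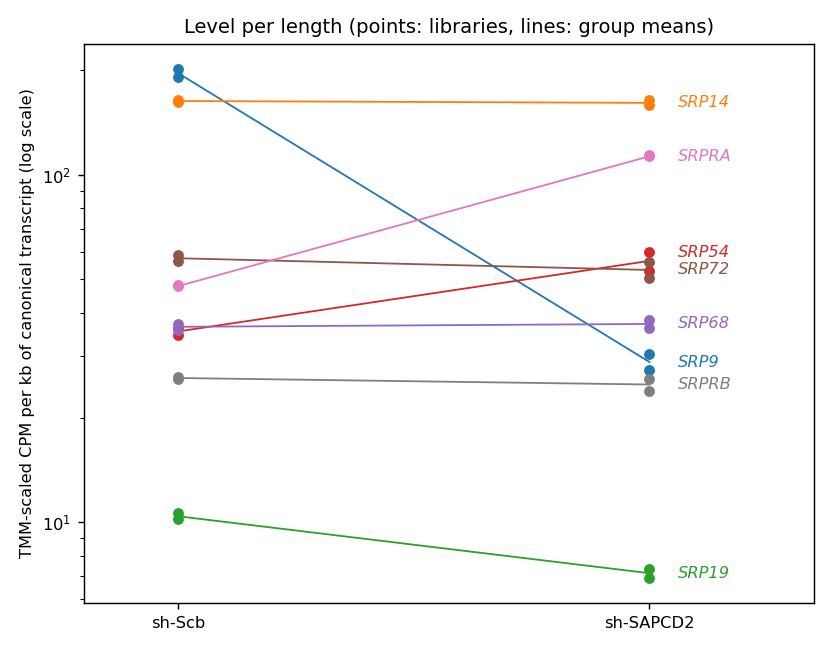
Level of each gene per kilobase of its canonical transcript, in TMM-scaled CPM per kilobase on a log axis, in sh-Scb and sh-SAPCD2 cells. Points are libraries and lines join the group means. SRP9 moved from the highest mean, 196, to 28.9, below SRP14, SRPRA, SRP54, SRP72 and SRP68, while SRP19 was lowest in both groups at 10.4 and 7.13.

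Copies and neighbours of these genes bear on what their counts hold. Of 11 annotated pseudogenes of the SRP genes in the table, 3 had no count and the highest count was 40, for SRP9P1. SRP9P1 had counts of 40 and 39 in the sh-Scb libraries and of 8 and 7 in the sh-SAPCD2 libraries, with a log2 fold change of −2.41 ± 0.425 (SE), and reads of SRP9 and SRP9P1 may have been split between the copies. The sources used here do not say whether counting used the strand, so that reads of overlapping genes may be shared. SRP9, SRP14 and SRP72 overlapped no other annotated gene. SRPRA overlaps FOXRED1 and FAM118B on the opposite strand. FOXRED1 was measured at 52.6 and 50.6 CPM in control and at 39.9 and 49.8 CPM in knockdown cells, and FAM118B at 28.9 and 28.8 against 36.3 and 36.5 CPM, so that both stood below SRPRA in each library. SRP54-AS1, on the strand opposite SRP54, was between 0.909 and 1.81 CPM. SRP19 overlaps 4 genes, of which REEP5 was the most abundant at 64.3 to 78.8 CPM.

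The genes with profiles most like that of SRP9 were named by the smallest Euclidean distance between log2 CPM values centred on each gene's mean over the 4 libraries, among 15681 other genes with a mean of at least 1 CPM. They were XKR5 at a distance of 0.13 log2 units, C12orf75 at 0.136, ENSG00000267194 at 0.141, UACA at 0.156 and IGFBP4 at 0.186. The most abundant of the 5 in control cells, IGFBP4, which encodes an insulin-like growth factor binding protein, had a mean of 56.0 CPM in control and 7.92 CPM in knockdown cells. No SRP or receptor gene was among the 5. This follows from the fold changes on which the members were selected. The 5 genes had log2 fold changes of −2.9 to −2.68, and the next lowest member after SRP9 was SRP19 at −0.55.

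The RNA scaffold of the particle is poorly measured where libraries are made from polyadenylated RNA, and its near-identical gene copies share reads. The study's text does not say whether these libraries were made in that way. RN7SL2 was measured at 29.2 and 46.3 CPM in the sh-Scb libraries and at 39.6 and 356 CPM in the sh-SAPCD2 libraries. RN7SL1 was measured at 21.4 and 39.6 CPM against 29.3 and 141 CPM, and RN7SL3 had no count. The higher level stood in sh-SAPCD2 library 2 alone, and neither gene was called by edgeR (adjusted p = 0.104 for RN7SL2 and 0.165 for RN7SL1) or by DESeq2 (adjusted p = 0.166 and 0.292), while RN7SL2 had an unadjusted p under 0.05 in edgeR. The log2 fold change of RN7SL2, 2.39, was 0.07 without that library. It was called when any other library was left out, at 2.09 without sh-Scb library 1, 2.76 without sh-Scb library 2 and 3.23 without sh-SAPCD2 library 1.

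The other genes of the route into the ER were followed through 7 lists, the SRP RNA genes included, that together hold 54 genes. Of the 53 tested, 10 rose (18.9%, against 12.4% of all tested genes), 2 fell (3.77%, against 12.5%) and 41 were not called. Their median log2 fold change was 0.17, against 0.02 over all tested genes. This count moved with the libraries used. It was 17 higher and 5 lower without sh-SAPCD2 library 2, where 17.9% of all tested genes were higher and 17.7% lower. It was 26 and 8 without sh-SAPCD2 library 1 (22.1% and 20.2% of all), 8 and 1 without sh-Scb library 1 (6.09% and 5.81%), and 5 and 1 without sh-Scb library 2 (5.92% and 5.8%). The share called over all genes thus moved with the count of the lists.

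The SEC61 channel and its helpers, the longest of the lists, held most of the genes that rose. Of its 14 genes 6 rose and none fell, with a median log2 fold change of 0.28. Over all tested genes 12.4% were called higher and 12.5% lower, with a median of 0.02. SEC61A1, the pore-forming subunit to which the receptor passes the chain, was measured at 216 and 208 CPM in control and at 362 and 371 CPM in knockdown cells (log2 fold change 0.79 ± 0.0929 SE, adjusted p = 0.00446, edgeR). HSPA5, the ER lumenal Hsp70 chaperone, was measured at 336 and 344 CPM against 556 and 501 CPM (0.64 ± 0.0998 SE, adjusted p = 0.00889, edgeR). SSR1, a subunit of the translocon-associated TRAP complex, was measured at 119 and 126 CPM against 202 and 172 CPM (0.60 ± 0.118 SE, adjusted p = 0.0164, edgeR). Without sh-Scb library 2 none of these 3 was called (adjusted p = 0.0561, 0.107 and 0.128, edgeR), and without sh-Scb library 1 HSPA5 and SSR1 were not called (0.132 and 0.205), with fold changes of 0.56 to 0.76 throughout. The other 3 were SEC61B, SSR2 and SSR4, named here because they complete the count. SEC61B and SSR4 were higher in sh-SAPCD2 library 2 than in library 1, at 82.7 against 56.8 CPM and 228 against 140.2 CPM.

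The enzymes that act on the chain as it enters were mostly not called, as were 14114 of all 18779 tested genes. None of the 5 signal peptidase genes was called by edgeR (the smallest adjusted p was 0.223, for SPCS1, with a log2 fold change of −0.24 ± 0.13 SE), none had an unadjusted p under 0.05, and none was called by DESeq2, with adjusted p from 0.307 for SPCS3 to 0.534 for SEC11C. In the oligosaccharyltransferase, which attaches N-glycans, 2 of 12 genes rose and 1 fell. OST4, a small subunit, was measured at 65.3 and 66.3 CPM in control and at 108 and 183 CPM in knockdown cells (log2 fold change 1.15 ± 0.238 SE, adjusted p = 0.0198, edgeR). OSTC rose by 0.43 and MAGT1 fell by 0.45 on the log2 scale (adjusted p = 0.0291 and 0.0311, edgeR). Neither of the latter calls held without sh-Scb library 1 (adjusted p = 0.332 and 0.344) or library 2 (0.431 and 0.379), and MAGT1 was at an adjusted p of 0.0502 with the replicate number as a block.

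Factors that work beside or in place of the SRP were followed in short lists, and nothing is read from their numbers of calls. Over all tested genes 12.4% were called higher and 12.5% lower. In the nascent polypeptide-associated complex, which binds chains at the ribosome and keeps the SRP from those without a signal peptide, 1 of 3 listed genes fell. It was BTF3L4, a paralog of the beta subunit BTF3, at 86.9 and 89.9 CPM in control and 43.0 and 39.5 CPM in knockdown cells (log2 fold change −1.10 ± 0.112 SE, adjusted p = 0.0033, edgeR). In the GET pathway, which inserts tail-anchored proteins after translation, 1 of 7 genes rose, GET4, from 53.6 and 50.5 CPM to 79.0 and 113 CPM (0.89 ± 0.183 SE, adjusted p = 0.0194, edgeR). In the ER membrane protein complex, an insertase for membrane proteins, 1 of 10 rose, EMC2, from 48.5 and 46.0 CPM to 87.2 and 65.8 CPM (0.69 ± 0.159 SE, adjusted p = 0.0261, edgeR). The call of EMC2 was lost without sh-Scb library 1 (adjusted p = 0.0926) or library 2 (0.138), while that of BTF3L4 held under all 12 alternatives.

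**Figure D4:**
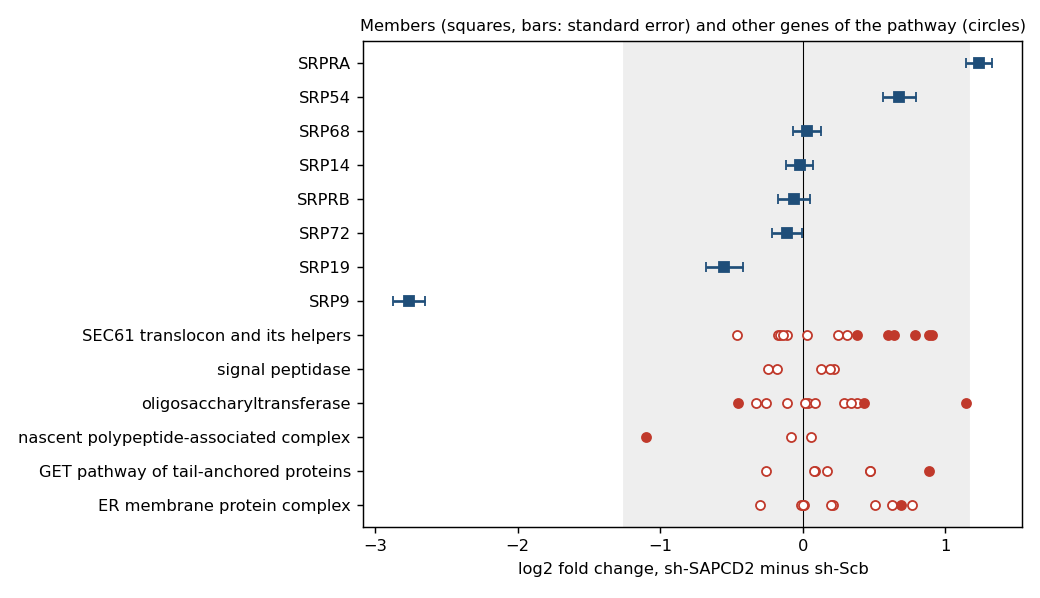
Log2 fold change, sh-SAPCD2 minus sh-Scb, of the 8 SRP and receptor genes (squares, with bars for the standard error) and of the genes of 6 other lists of the ER route (circles, filled where the adjusted p was under 0.05). The grey band holds the values from the 5th to the 95th percentile of all tested genes, −1.25 to 1.17. SRP9 at −2.76 lay below the band and SRPRA at 1.24 just above it.

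The sites shown at the start were set beside all genes with an annotated 3′ UTR. The SRP9 match, AGAGGTC, stood in 1185 of 13508 genes (8.77%). Of these carriers 21.7% were called lower, against 13.3% of the genes without it, and the median log2 fold changes were −0.12 and 0.05. SRP9 lay near the end of this distribution, since 9 carriers had a lower log2 fold change. SRP9 was selected on its fold change, and the site was singled out in these same libraries. Nothing is therefore read from this place. The SRP19 match, TCCACCT, stood in 17.8% of the genes, of which 22.8% were called lower against 12.1% of those without it. One or both of the 2 matches were found in 23.4% of genes and in 2 of the 8 members, a share near that of all genes, and nothing is read from which members carry them. Over all annotated protein-coding transcripts SRP19 carried AGAGGTC as well. The SRPRA match, CCTGCAG, stood in 20.7% of the genes, with a median log2 fold change of 0.06 among carriers and 0.03 without it, and 14.6% of its carriers were called lower against 13.8%. No member carried the matches of the guide seeds or of bases 2 to 8 of the hairpin 1 passenger arm. Their differences in the share called lower, like that of the SRPRA match, were smaller than those of the shifted sites. The shifted sites had been singled out in earlier work on these same libraries, so that nothing is read from this order. The shares called lower with and without the match were 16.9% and 13.6% for ACCTTCA, 14.4% and 13.9% for CCAGAGG, and 15.6% and 13.7% for GAGATGA. These shares describe letters in annotated 3′ UTRs. Whether a hairpin acted on any of these transcripts was not tested.

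**Figure D5:**
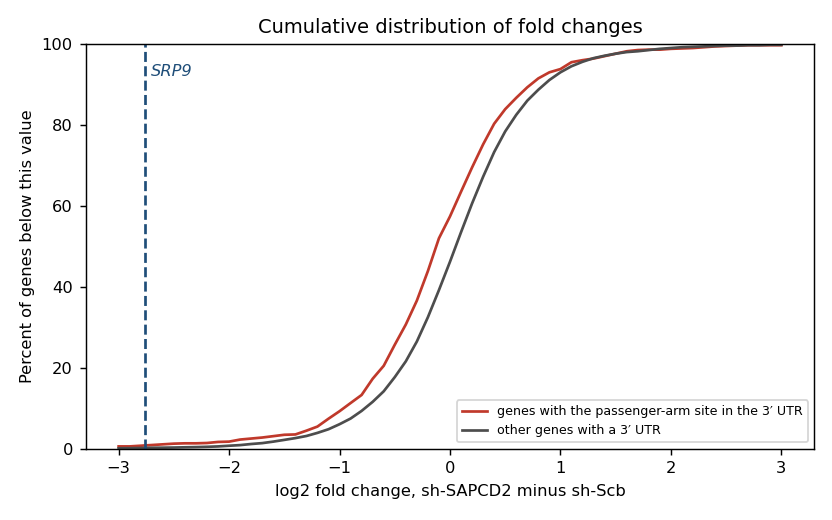
Cumulative distribution of the log2 fold change, sh-SAPCD2 minus sh-Scb, for the 1185 genes with the passenger-arm match carried by SRP9 in the 3′ UTR (red) and for the other genes with an annotated 3′ UTR (grey). The red curve lies to the left over the middle of the range, with medians of −0.12 and 0.05. The dashed line marks SRP9, which was selected on its fold change, at −2.76.

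Promoters, from 250 bases before to 50 bases after the start of each gene, were taken from RefSeq (GRCh38.p14) for the 7 members that matched, and SRPRA was without a match. On both strands, the E-box of MYC factors, CACGTG, was found in none of the 7 and in 7.26% of all 35116 promoters. The E2F consensus, searched as TTTCCCGC, TTTGGCGC, TTTCGCGC and TTTGCCGC, was also found in none, against 3.31% of all promoters. The CCAAT box, CCAAT, was found in SRP9, SRP14 and SRP54 and in 34.6% of all promoters. After knockdown SRP9 was lower, SRP14 at control level and SRP54 higher. The members were selected on this contrast, and nothing is read from which of the 7 carry a motif. Whether any of these motifs bears on the levels was not tested.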

How the data were processed

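RNA of 4 libraries was prepared with the Illumina TruSeq RNA kit. The authors aligned the reads to hg38 with HISAT2 2.2.0, quantified genes with StringTie and deposited whole-number counts per gene, not normalized. Whether counting was stranded, and how multi-mapped reads were treated, is not given in the sources used here.

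Groups came from the labels. Counts were scaled by TMM and tested with edgeR 4.0.16 (quasi-likelihood, R 4.3.3) after filterByExpr (minimum count 10, minimum total 15), which left 18779 genes, 17467 of them in GENCODE 44. The BCV was 15.4%. Adjusted p-values are over all tested genes. Calls used an adjusted p under 0.05, with and without an absolute log2 fold change over 1. The test was checked on simulated data. Alternatives were DESeq2 1.42.0, its size factors, library totals, filters, a replicate block, a GC content and length correction (loess, span 0.3) and each library left out.

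The SRP genes and all lists were chosen with earlier results of these data known. Named were the members, SAPCD2, up to 3 called genes of smallest p per ER list (where none was called, the gene of smallest p) and the 5 genes most like SRP9. Same-numbered libraries did not deviate together (correlation 0.00132 over 15682 genes), and the numbers were not treated as pairs. Part of the neuroblastoma marker list is not reported here.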

Additional observations from a re-analysis of the deposited data

How the results depend on the processing

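SRP9, SRPRA, SRP54 and SRP19 had the same sign under all 12 alternatives, which is a description since they were selected on this contrast. The log2 fold change of SRP9 was −2.84 to −2.69. That of SRPRA, whose libraries varied by an SD of 0.00661 log2 units, was 1.26 with DESeq2, 1.23 with library totals, 1.24 with a mean of at least 1 CPM and 1.20 with the GC content and length correction, with or without the replicate block. The counts of members called, which restate their selection, moved as follows. With an adjusted p under 0.01 only 1 member was lower and 1 higher. Without a filter on low counts 1 was lower, and with each library left out 1 to 3 were lower and 1 to 2 higher. Of the ER lists, 2 genes were higher and 1 lower without the filter and likewise at an adjusted p under 0.01, 17 and 6 with the GC content and length correction, 20 and 7 with this correction and the replicate block, and 5 to 26 and 1 to 8 with each library left out. The replicate block left 13 higher and 1 lower, and called RN7SL2 at a log2 fold change of 1.72. It moved the counts over all genes to 2860 higher and 2701 lower and changed no call of a member. Of the named ER genes it ended the call of MAGT1 alone (log2 fold change −0.45, adjusted p = 0.0502, edgeR). The numbers do not pair the samples by design, and the correlation of deviations was 0.00132 with 2 pairs. Over all genes, no filter gave 1081 higher and 1180 lower, of which 553 higher were DEGs. An adjusted p under 0.01 gave 699 and 758, with 447 and 522 DEGs. The GC content and length correction gave 3567 lower, or 3648 with the replicate block. Leaving out each library gave 1176 to 4396 higher, 1146 to 4014 lower, 705 to 1323 DEGs higher and 841 to 1205 lower. The log2 fold change of SAPCD2 was −0.91 without the filter, then not called (adjusted p = 0.0749, edgeR, range over the alternatives 4.42e-07 to 0.0749). The SRP9 to SRP14 ratio in control was 1.47 over merged exons, and AGAGGTC was in 2 members over all transcripts. The cause of these shifts was not tested, except that fewer or more genes or libraries enter by construction. Over the named ER genes and alternatives, 18 values lost a call and 5, all of RN7SL2, gained one. The filter's absence ended the calls of SSR1, OST4, OSTC, MAGT1, GET4 and EMC2 (adjusted p = 0.053 to 0.084, edgeR). With 2 libraries per group, a library that is left out leaves 1 in its group, which is then assumed to vary like the other group.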
